A study of Mus musculus with 24 samples.

Results

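The comparison of hippocampal CA1 at 72 h after pilocarpine-induced status epilepticus (SE) with its time-matched control (Ctr) rested on 6 of the 24 RNA-seq libraries of the series, 3 from SE mice and 3 from Ctr mice, chosen by the treatment and time in the labels. All were adult C57Bl/6N mice (at least 60 days old and 20 g in weight). Both groups received scopolamine methyl nitrate (1 mg/kg) and diazepam (4 mg/kg). The SE 72 h group was given pilocarpine (335 mg/kg) 20 min after scopolamine and only mice that developed SE were kept, with diazepam following 40 min after SE onset, whereas Ctr 72 h mice were given saline in place of pilocarpine. Whole CA1 was dissected by eye from 400 µm slices, so each library held neurons, glia and vessels together, and a change in the number of cells of a type cannot be told apart from a change in RNA per cell. The labels do not say whether replicates were separate mice, so p-values measure the spread between libraries of a group, as estimated over all 24. The other 18 libraries covered SE at 6, 12, 24 and 36 h and Ctr at 12 and 36 h, 3 in each group.

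Pilocarpine activates muscarinic receptors, and the continuous seizures it causes injure hippocampal neurons and start epileptogenesis, the process that leads to chronic temporal lobe epilepsy. Astrocytes answer such injury by building up intermediate filaments and secreting acute phase proteins. Microglia, the resident macrophages of the brain, answer it by dividing, clearing debris through complement and lysosomal enzymes, and presenting antigen, while CA1 pyramidal neurons carry the output of the hippocampus and rely on the vesicle release machinery and ion channels described further on.

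Read pairs counted in genes came to 10088496 to 20278630 per SE 72 h library and 2663936 to 11680209 per Ctr 72 h library, and counting error is therefore larger in Ctr. Levels are given in CPM, the counts of a gene scaled to the size of its library. The Ctr 72 h replicate 2 library held RNA of sensory ganglion neurons and Schwann cells: 15 genes such as Scn10a summed to 16.5, 2209 and 99.4 CPM in Ctr replicates 1 to 3 and to 1189.6, 626 and 28.4 CPM in SE replicates 1 to 3. SE replicates 1 and 2 thus carried them as well, and none of the 15 passed the test (median Log2FC 2.65 in the fit, SE over Ctr). That median was -0.49 with no factor of unwanted variation in the fit, and the mean CPM of each of the 15 was lower in SE. Neurons, microglia, astrocytes and CA1 pyramidal cells were all seen by their markers in all 6 libraries. Summed dentate granule cell markers were at 58.1, 34.6 and 53.2 CPM in Ctr and 330.3, 43.1 and 62.5 CPM in SE, with SE replicate 1 standing apart. Of 6 such markers 4 were called higher, and 0 without Ctr replicate 2 or without SE replicate 1. The CA1 pyramidal markers were lowest in that same library (472, 949.9 and 945 CPM in SE against 1493, 1377 and 1259 CPM in Ctr). Haemoglobin and other blood genes summed to 49.4, 114 and 56.6 CPM in Ctr and 41.8, 15.8 and 10.5 CPM in SE, with 3 of 5 called lower and 0 without Ctr replicate 2, and oligodendrocyte genes spread over 4634, 2699.6 and 4839 CPM in Ctr and 2852, 7486 and 5937 CPM in SE. What part these tissue differences had in the results was not tested. The fit held 1 factor of unwanted variation whose largest value, 0.792, fell on Ctr replicate 2, and each result was also taken without that library.

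**Figure D1:**
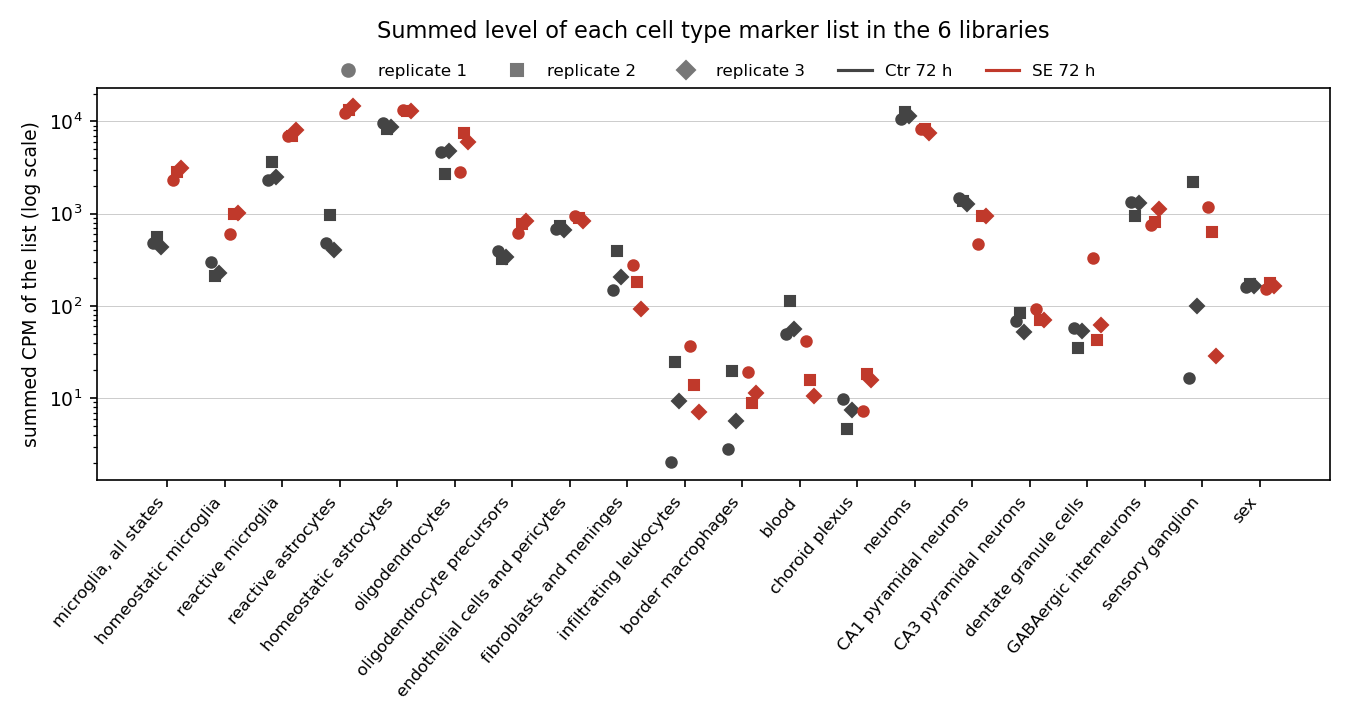
Summed CPM (logarithmic axis) of the marker genes of 20 cell types or tissues in each of the 6 libraries at 72 h, grey for Ctr and red for SE, with 1 symbol per replicate. The SE libraries lie above all Ctr libraries for microglia and astrocytes, while sensory ganglion markers reach 2209 CPM in Ctr replicate 2 and 1189.6 CPM in SE replicate 1.

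To find the genes that separated SE from Ctr at 72 h, 18153 genes were tested. A gene counted as differentially expressed (DEG) at an adjusted p of at most 0.05 and a Log2FC (log2 of SE over Ctr, fitted with the unwanted factor) of at least 0.66 in size. There were 3509 DEGs, of which 2747 were higher in SE (15.1% of the genes tested) and 762 lower (4.2%). Increases were the larger fitted changes: the median Log2FC was 1.84 among genes called higher and -0.94 among genes called lower. In all, 411 genes were higher by at least 4 on the log2 scale against 7 lower by as much. Fitted increases are poorly bounded near 0 counts in Ctr, and 317 genes called higher had no Ctr library above 3 counts. Genes called higher had a median level of 2.74 log2 CPM, below the 4.17 of genes called lower. The 3 SE libraries lay outside the range of the 3 Ctr libraries in 2921 of the DEGs. Over all genes the groups did not overlap in 19.4% with SE higher and in 13.4% with SE lower. Without Ctr replicate 2 there were 2198 higher (11.9% of 18495) and 913 lower (4.94%), and 2451 DEGs were called the same way in both fits. A stricter set of 1725 higher (9.5%) and 506 lower genes (2.79%) held in 4 fits, which were the fit described, a fit with no unwanted factor, a fit with a sensory ganglion score in its place, and the fit without Ctr replicate 2. All 4 fits kept SE replicates 1 and 2, which also carried ganglion RNA, so the set cannot exclude its influence. Without Ctr replicate 2 the median Log2FC of the ganglion genes was 4.15. The unwanted factor can set a fitted value against the measured order of the groups. Xist, whose CPM was 0.084, 77.1 and 1.12 in Ctr and 33.9, 14.9 and 1.36 in SE, had a fitted Log2FC of 13.97, a call lost without Ctr 72 h replicate 1 (9.03, adjusted p = 0.0692) and without Ctr 72 h replicate 2 (6.17, adjusted p = 0.166). Its CPM was highest in the 3 libraries that held sensory ganglion RNA. The Y-linked Ddx3y was at 55.9, 25.8 and 61.5 CPM in Ctr and 43.7, 55.9 and 55.7 CPM in SE. The source of the Xist RNA was not tested. There were 38 genes called higher with a lower mean CPM in SE, none of them in all 4 fits.

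**Figure D2:**
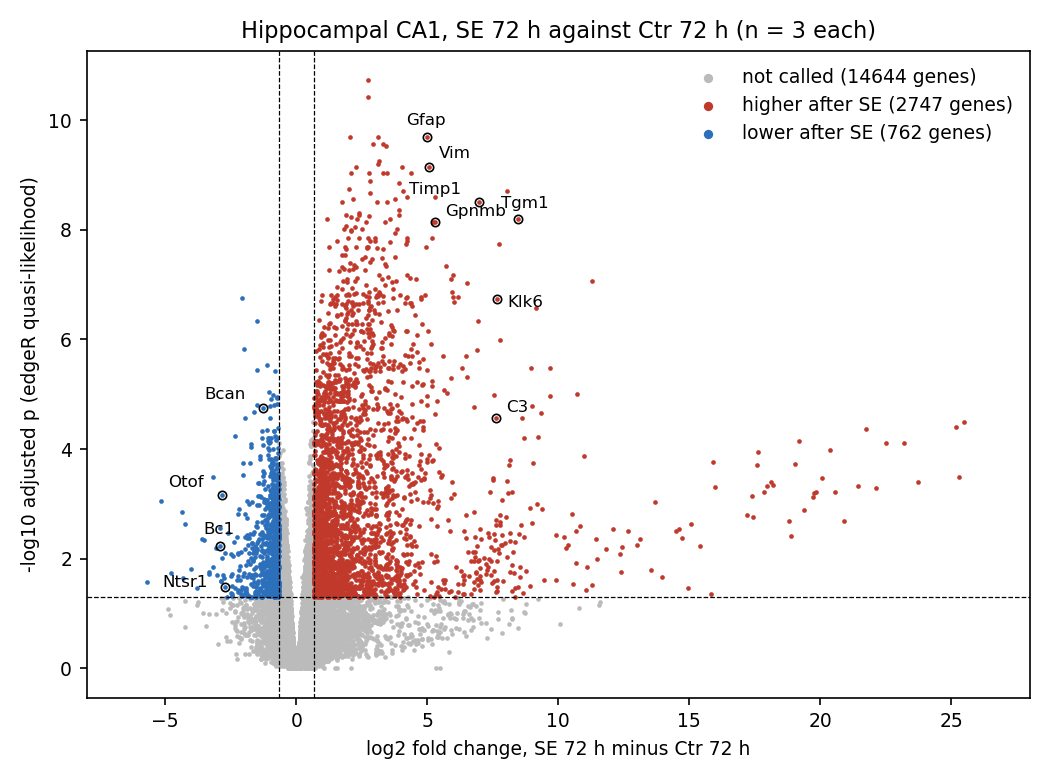
Log2FC of SE 72 h over Ctr 72 h (horizontal axis) against -log10 of the adjusted p (vertical axis) for the 18153 genes tested, 1 point a gene, with dashed lines at a Log2FC of 0.66 in size and an adjusted p of 0.05. The 2747 genes called higher reach further out than the 762 called lower, and named genes are labelled.

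Among genes called higher with a mean of at least 1 log2 CPM, groups that did not overlap, the same call without Ctr replicate 2 and a Ctr library above 3 counts, 12 had the largest fitted values. Genes nearer 0 counts in Ctr could have larger ones. Tgm1 (transglutaminase 1, an enzyme that cross-links proteins; ENSMUSG00000022218.17, chr14:55937466-55951383, minus strand, GRCm39) stood at 0.675, 0.341 and 0 CPM in Ctr and 171, 150.4 and 195 CPM in SE, a Log2FC of 8.46 ± 0.62 (± standard error of the fit, n = 3 libraries per group) at an adjusted p of 6.26e-09 in the edgeR quasi-likelihood test with Benjamini-Hochberg adjustment. Every SE library was above 100 CPM and every Ctr library below 1 CPM. Klk6 (kallikrein related peptidase 6, a secreted serine protease; ENSMUSG00000050063.19, chr7:43473869-43481516, plus strand) had 0.338, 0 and 0 CPM in Ctr and 17.3, 58.0 and 41.9 CPM in SE, with a Log2FC of 7.65 ± 0.73. Complement C3 (ENSMUSG00000024164.16, chr17:57510964-57535155, minus strand) was at 0 counts in Ctr replicates 1 and 3 and at 0, 0.853 and 0 CPM over the 3 Ctr libraries, against 32.4, 10.6 and 17.5 CPM in SE. Timp1 (tissue inhibitor of metalloproteinases; ENSMUSG00000001131.12, chrX:20736316-20740976, plus strand) had 0.169, 2.05 and 0.375 CPM in Ctr and 85.9, 63.8 and 95.7 CPM in SE. The groups stayed far apart in all of these genes. Next came A2m (a broad protease inhibitor of plasma, Log2FC 6.88), Flnc (the actin cross-linker filamin C, 6.50), Ifi207 (of the interferon-inducible Ifi200 family, 6.48), Spp1 (osteopontin, 5.92), Ptx3 (a secreted pentraxin, 5.75), Slfn9 (a Schlafen gene, 5.73), Cdca3 (a cell division gene, 5.30) and Gpnmb (a glycoprotein of lysosome-rich macrophages, 5.29). Ifi207 and Slfn9 have close copies in the genome, between which the counting could split reads. With single libraries left out all 12 genes remained called, and Log2FC became 6.06 for A2m, 6.38 for C3, 11.38 for Cdca3, 8.07 for Flnc, 7.53 for Ifi207, 12.42 for Klk6, 6.55 for Ptx3, 5.08 for Spp1, 9.74 for Tgm1 and 5.96 for Timp1 without Ctr 72 h replicate 1. It was 8.26 for A2m, 11.28 for C3, 4.46 for Cdca3, 5.60 for Flnc, 5.06 for Slfn9, 7.20 for Spp1 and 8.56 for Timp1 without Ctr 72 h replicate 2. It was 6.83 for C3 without Ctr 72 h replicate 3. It was 6.91 for C3 without SE 72 h replicate 1. It was 5.75 for Flnc without SE 72 h replicate 3.

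Among genes with at most 3 counts in each Ctr library, 5 had the highest ratios to that floor under the other limits. Tlr2 (a Toll-like receptor for bacterial lipoproteins; ENSMUSG00000027995.11, chr3:83743576-83749074, minus strand) had 1, 0 and 2 counts in Ctr and 26.9, 31.6 and 45.7 CPM in SE, 55.1 times the level that 3 counts per Ctr library would give. For Cd72 (an inhibitory lectin) the Ctr counts were 3, 0 and 0 and the SE libraries held 30.2, 38.4 and 28.9 CPM, 51.6 times that floor. Cd52 (a small surface glycoprotein of leukocytes) stood 38.2 times above it, Msr1 (a scavenger receptor) 37.0 times and Ifi204 (an Ifi200 gene with close copies) 34.6 times. Cst7 (cystatin F, an inhibitor of lysosomal cathepsins) had 0 counts in all Ctr libraries and 13.8, 25.1 and 21.4 CPM in SE, at least 31.9-fold higher. In all, 317 genes called higher had no Ctr 72 h library above 3 counts.

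The 12 largest fitted decreases were taken under the same limits, the Ctr count aside. Bc1 (a short cytoplasmic RNA of neuronal dendrites; ENSMUSG00000115783.2, chr7:144468199-144468374, plus strand) was at 3246, 3332 and 8376 CPM in Ctr and 522, 612 and 873 CPM in SE, with a Log2FC of -2.91 ± 0.74 and an adjusted p of 0.00596 in the edgeR test. All SE libraries were below all Ctr libraries, but the Ctr 72 h libraries were themselves above the means of 1207 CPM at Ctr 12 h and 887 CPM at Ctr 36 h. The snRNA Gm22513 had a Log2FC of -3.34. Bc1 and Gm22513 are short RNAs measured in a poly(A)-selected library. Coding genes were led by Asb16 (a substrate receptor of ubiquitin ligases, 2.87, 9.04 and 7.50 CPM in Ctr and 1.06, 0.382 and 0.487 CPM in SE, Log2FC -3.17), Otof (otoferlin, a calcium sensor of vesicle fusion, 21.7, 8.70 and 12.4 CPM and 3.14, 0.858 and 1.66 CPM, -2.83) and Ntsr1 (the high affinity neurotensin receptor, 11.7, 8.36 and 7.50 CPM and 1.01, 1.62 and 1.71 CPM, -2.72). Each of these had its 3 SE libraries below its 3 Ctr libraries. Slc9a3 (a sodium-proton exchanger, -2.18), Epha8 (an ephrin receptor, -2.03) and Mycn (a transcription factor, -2.03) followed, with the lncRNAs Gm39326 (-2.36), 1700016P03Rik (-2.24), Gm2464 (-2.20) and 2900052N01Rik (-2.09). Calls were lost for 1700016P03Rik and Ntsr1 without Ctr 72 h replicate 1 (Log2FC -1.89 to -2.51), for Gm22513 without Ctr 72 h replicate 3 (Log2FC -2.40), for Ntsr1 without SE 72 h replicate 1 (Log2FC -2.50), for Epha8, Gm22513 and Ntsr1 without SE 72 h replicate 2 (Log2FC -1.86 to -3.37), and for Gm22513 and Ntsr1 without SE 72 h replicate 3 (Log2FC -2.87 to -2.90). Log2FC moved to -1.57 for Slc9a3 without Ctr 72 h replicate 2, -3.94 for Gm22513 and -3.42 for Otof without SE 72 h replicate 1, and -3.22 for 1700016P03Rik without SE 72 h replicate 3.

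**Figure D3:**
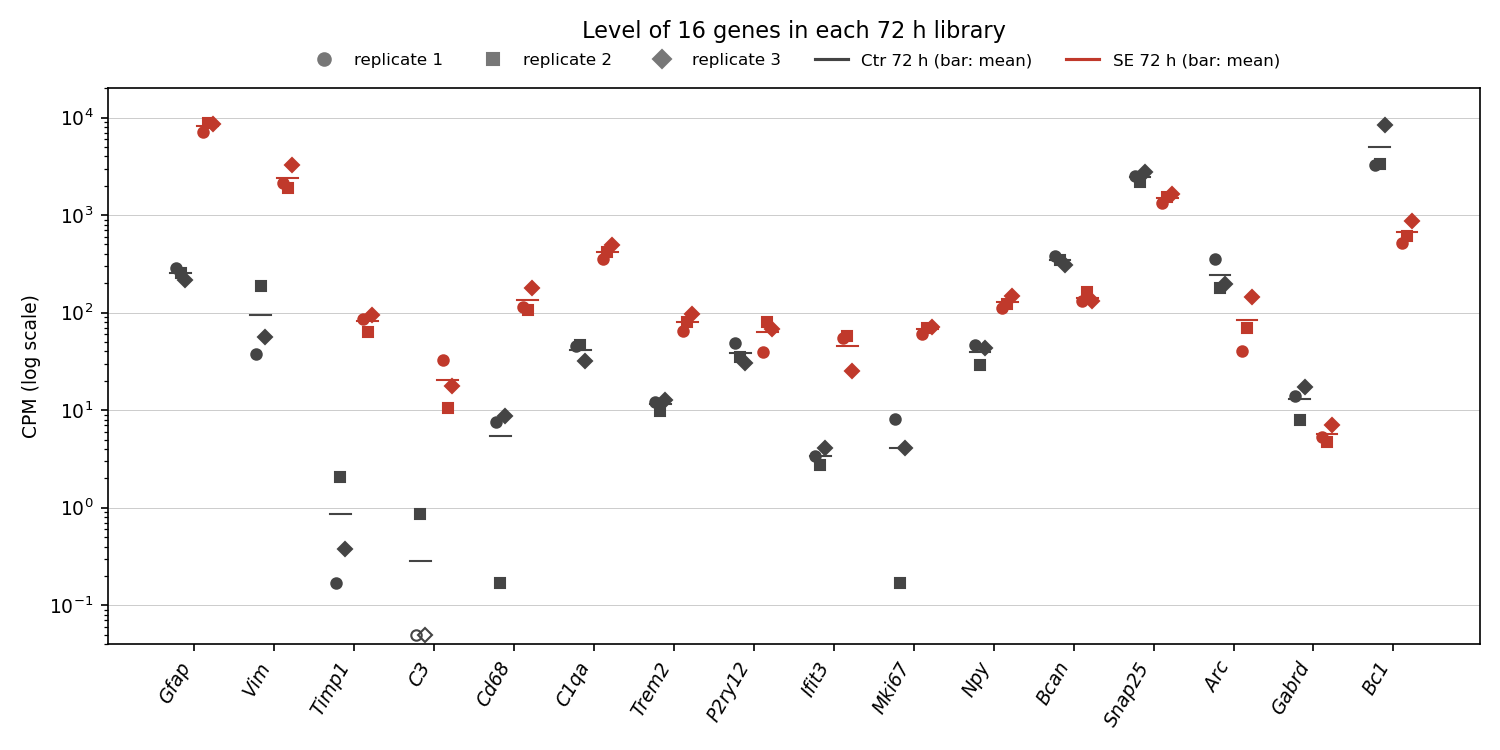
CPM (logarithmic axis) of 16 genes in the 3 Ctr (grey) and 3 SE (red) libraries at 72 h, with circles, squares and diamonds for replicates 1, 2 and 3 and a bar at the group mean. Open symbols at 0.05 mark libraries with 0 counts, which holds for C3 in Ctr replicates 1 and 3, and the SE symbols lie above the Ctr symbols for Gfap and below them for Bc1.

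To see how astrocytes stood at 72 h, genes of the reactive and of the homeostatic state were taken apart. All 19 reactive astrocyte genes rose, at a median Log2FC of 3.67 against 0.09 over all genes tested. Gfap (the intermediate filament of astrocytes; ENSMUSG00000020932.15, chr11:102778159-102791738, minus strand) had 290.1, 256 and 217 CPM in Ctr and 7078, 8779 and 8594 CPM in SE, 32.0-fold in the fit, with a Log2FC of 5.0 ± 0.26 and an adjusted p of 2.08e-10 in edgeR. Vim (vimentin, another filament protein) stood at 38.0, 189 and 56.6 CPM in Ctr and 2132, 1879 and 3228 CPM in SE. Neither gene had overlapping groups. Serpina3n (a secreted protease inhibitor) rose by 4.94 on the log2 scale, Cd109 (a surface protease inhibitor) by 4.83, Aspg (an asparaginase) by 5.17, Lcn2 (lipocalin, an iron-siderophore carrier) by 3.49, Osmr (the oncostatin M receptor) by 2.83 and Nes (nestin, a filament of progenitors) by 2.11. Cd44, the hyaluronan receptor, was at 4.05, 68.6 and 7.50 CPM in Ctr and 139.6, 152 and 180.3 CPM in SE. Steap4 (a metalloreductase) and S100a10 (an annexin partner) were called but their groups overlapped, and 17 of the 19 genes held in all 4 fits. Without 1 library Log2FC was 2.58 for Cd44 without Ctr 72 h replicate 1. It was 4.36 for Aspg, 4.97 for Cd44, 3.75 for Osmr, 1.83 for S100a10, 9.43 for Steap4 and 5.70 for Vim without Ctr 72 h replicate 2. It was 3.95 for Steap4 without Ctr 72 h replicate 3. It was 4.19 for Steap4 without SE 72 h replicate 1. Calls were lost for Emp1 at 1.82 (adjusted p = 0.0653), S100a10 at 0.68 (adjusted p = 0.107) and Steap4 at 3.00 (adjusted p = 0.0533) without Ctr 72 h replicate 1.

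Of 18 homeostatic astrocyte genes, 9 rose and 1 fell, at a median Log2FC of 0.73. The increases included channels and pumps that buffer water and potassium. Aqp4 (the water channel of astrocyte endfeet) had 124, 84.1 and 112 CPM in Ctr and 628, 846 and 404 CPM in SE, a Log2FC of 2.56 ± 0.24. Kcnj10 (Kir4.1, the inward rectifier that clears potassium) was at 199, 158 and 168 CPM in Ctr and 536, 868 and 883 CPM in SE, a Log2FC of 2.12 ± 0.21. The SE libraries were above the Ctr libraries in both. Aldh1l1 (a folate enzyme used as an astrocyte marker, 2.13), Atp1b2 (a subunit of the astrocytic sodium pump, 1.99), Fgfr3 (a fibroblast growth factor receptor, 1.20), Sox9 (an astrocyte transcription factor, 1.18) and Slc4a4 (a bicarbonate transporter, 1.05) rose as well. Slc6a11 (GAT-3, which takes up GABA) fell, from 203, 148 and 171 CPM in Ctr to 92.7, 74.6 and 103 CPM in SE, a Log2FC of -0.95 ± 0.27, and its call was lost without Ctr 72 h replicate 1 (-0.81, adjusted p = 0.0566) and without SE 72 h replicate 2 (-0.83, adjusted p = 0.0595). Hes5 had the lowest fitted Log2FC of the list, -2.1 (0.234 of the Ctr level), but was not called. Without Ctr replicate 2, with no unwanted factor or with the sensory ganglion score, 2 genes of the list were called lower. The glutamate transporters Slc1a2 (GLT-1, Log2FC -0.29 ± 0.13) and Slc1a3 (GLAST, 0.54 ± 0.17) did not pass the test. Grm3 (a metabotropic glutamate receptor, 0.92) was called, but not without Ctr 72 h replicate 2 (0.60, adjusted p = 0.208), without SE 72 h replicate 2 (0.88, adjusted p = 0.0577) and without SE 72 h replicate 3 (0.59, adjusted p = 0.166).

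To describe microglia, a list of genes common to all their states was read first. All 14 rose, without overlap between the groups, at a median Log2FC of 2.66, and all held in each of the 4 fits. Their summed level was 476, 552 and 434 CPM in Ctr and 2297, 2864 and 3144 CPM in SE. C1qa (ENSMUSG00000036887.6, chr4:136623223-136626161, minus strand) went from 45.8, 46.6 and 32.2 CPM to 358, 416 and 492 CPM, a Log2FC of 3.33 ± 0.19 at an adjusted p of 2.74e-10 in edgeR. Csf1r, the receptor for the survival factor CSF1, had the smallest rise of the list (121, 129 and 104 CPM in Ctr, 328, 481 and 461 CPM in SE, Log2FC 1.84 ± 0.14). Aif1 (IBA1, an actin-binding marker of microglia) rose by 2.31, Itgam (CD11b) by 2.99 and Ptprc (CD45) by 2.55.

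Genes tied to homeostatic microglia moved less uniformly, with 8 of 10 called higher at a median of 1.79. Olfml3 (a secreted olfactomedin protein) had the largest rise, from 24.9, 39.2 and 15 CPM in Ctr to 152, 247 and 241 CPM in SE. Tmem119 rose by 2.06, Cx3cr1 (the fractalkine receptor) by 2.01, Gpr34 (a lysophosphatidylserine receptor) by 2.30 and Sall1 (a microglial transcription factor) by 2.00. P2ry12 (the ADP receptor that steers microglial processes; ENSMUSG00000036353.14, chr3:59123682-59170429, minus strand) stood at 49.3, 35.1 and 30.4 CPM in Ctr and 39.9, 80.7 and 67.9 CPM in SE. Its groups overlapped and its Log2FC of 0.69 ± 0.22 lay at the threshold. The call was lost without Ctr 72 h replicate 2 (0.63, adjusted p = 0.0879), without Ctr 72 h replicate 3 (0.57, adjusted p = 0.0876), without SE 72 h replicate 2 (0.47, adjusted p = 0.152) and without SE 72 h replicate 3 (0.63, adjusted p = 0.0753). Slc2a5 (a fructose transporter, 0.68 ± 0.47) and Siglech (a sialic acid lectin, 0.44 ± 0.27) did not pass.

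Of 21 genes of reactive, disease-associated microglia, 18 rose, at a median of 3.01. Cd68 (a lysosomal glycoprotein) stood at 7.60, 0.171 and 8.62 CPM in Ctr and 114, 108 and 179 CPM in SE, a Log2FC of 5.28 ± 0.36, and Trem2 (a lipid-sensing receptor) at 12.1, 9.89 and 12.7 CPM and 64.3, 80.9 and 97.0 CPM, a Log2FC of 2.81 ± 0.22. The SE libraries were higher than every Ctr library in both genes. Clec7a (a receptor for beta-glucans) rose by 5.0, Lgals3 (galectin 3) by 4.06, Itgax (CD11c) by 3.01, Axl (a receptor for dying cells) by 1.74 and Csf1 (the growth factor of microglia) by 1.94. Lpl (lipoprotein lipase) at 0.83 ± 0.49 and Igf1 (a trophic factor) at 0.71 ± 0.27 did not pass, and neither did Apoe. Igf1 was called without Ctr replicate 2 (0.95, adjusted p = 0.0171 in edgeR) and without SE replicate 2 (0.84, adjusted p = 0.0437). With 1 library left out, Log2FC was 5.97 for Cd68, 6.48 for Clec7a, 9.84 for Itgax and 3.09 for Lgals3 without Ctr 72 h replicate 1. It was 4.05 for Cd68, 4.34 for Clec7a, 2.32 for Itgax and 5.34 for Lgals3 without Ctr 72 h replicate 2. Markers of other leukocytes were near 0: the 6 tested summed to 2.02, 24.6 and 9.37 CPM in Ctr and 37.3, 13.9 and 7.11 CPM in SE, and 1 of them, the monocyte chemokine receptor Ccr2, was called (0.084, 4.09 and 0 CPM in Ctr, 6.86, 2.48 and 0.292 CPM in SE) but not in all 4 fits, the call being lost without Ctr 72 h replicate 1 (2.87, adjusted p = 0.217), without Ctr 72 h replicate 3 (2.49, adjusted p = 0.142), without SE 72 h replicate 1 (2.01, adjusted p = 0.272) and without SE 72 h replicate 2 (3.43, adjusted p = 0.0593). Of 5 border macrophage genes, Ms4a7 was called (0.169, 0.171 and 0.750 CPM in Ctr, 3.96, 2.48 and 2.97 CPM in SE). Called shares of 16.7% (leukocytes) and 20% (border macrophages) were near the 15.1% of all genes tested that were called higher.

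The complement cascade, which tags debris and synapses for removal, was higher at several of its levels, with 13 of 17 genes rising and none falling (median 2.80). The initiating C1q chains rose by 3.33 (C1qa), 2.80 (C1qb) and 3.11 (C1qc). C4b, the next component, was at 46.6, 53.5 and 30.4 CPM in Ctr and 325, 585 and 399.5 CPM in SE, a Log2FC of 3.32 ± 0.27. The receptors C3ar1 (4.17) and C5ar1 (4.32) for the anaphylatoxins and both chains of complement receptor 3, Itgam (2.99) and Itgb2 (3.60), rose with them. Of the inhibitors, Serping1 (the C1 inhibitor, 2.7) rose with overlapping groups (2.95, 46.0 and 1.5 CPM in Ctr, 71.6, 35.6 and 24.2 CPM in SE). With a library left out, Log2FC was 3.61 for C5ar1 without Ctr 72 h replicate 1, 5.03 for C5ar1 and 4.04 for Serping1 without Ctr 72 h replicate 2, and 2.03 for Serping1 without Ctr 72 h replicate 3.

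Pattern recognition receptors and the inflammasome showed 14 of 16 genes higher (median 3.00). Besides Tlr2, the endosomal receptors Tlr7 (4.39, 0.341 and 3.75 CPM in Ctr, 32.2, 28.3 and 29.2 CPM in SE), Tlr9 (Log2FC 2.97), Tlr13 (4.23) and Tlr3 (2.00) rose, as did the lipopolysaccharide receptor Tlr4 (2.58) with its co-receptor Cd14 (3.67). Myd88, the adaptor most of them share, rose by 1.61, Nlrp3 (an inflammasome sensor) by 3.46 and Pycard (the inflammasome adaptor ASC) by 3.03. Casp1, the protease that matures interleukin-1 beta, had a Log2FC of 2.43 ± 0.81, and its call was lost without Ctr 72 h replicate 2 (1.64, adjusted p = 0.0524) and without SE 72 h replicate 2 (2.35, adjusted p = 0.0596). Left out singly, libraries moved Log2FC to 3.14 for Casp1, 9.47 for Nlrp3, 4.03 for Pycard, 4.92 for Tlr13 and 4.49 for Tlr7 without Ctr 72 h replicate 1. It was 3.02 for Cd14, 2.33 for Nlrp3, 2.11 for Pycard, 3.50 for Tlr13, 2.84 for Tlr7 and 2.01 for Tlr9 without Ctr 72 h replicate 2.

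Fc and inhibitory receptors, which set the threshold of phagocytes, rose in 12 of 14 genes (median 3.75, or 2.83 with genes at the floor in Ctr set to their bound). The activating Fcgr3 (12.2, 13.5 and 6.37 CPM in Ctr, 61.5, 76.9 and 92.5 CPM in SE) and the inhibitory Fcgr2b (4.56, 10.9 and 4.87 CPM in Ctr, 53.6, 56.7 and 68.6 CPM in SE) both had SE libraries well above Ctr. Their Log2FC was 2.79 ± 0.26 and 3.27 ± 0.27, beside 2.81 for Fcer1g and 2.79 for Tyrobp, the signalling adaptors. Fcgr1 (the high affinity receptor, 4.23) and Lilrb4a (4.59, an inhibitory receptor with a near-identical copy, so that its reads are uncertain) rose too. Single libraries moved Log2FC to 4.92 for Fcgr1 without Ctr 72 h replicate 1, and 3.61 for Fcgr1 and 5.28 for Lilrb4a without Ctr 72 h replicate 2.

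Among 19 chemokines and their receptors, 11 rose and 1 fell, from low control levels (median 3.48, or 2.49 at the bounds). Cxcl10, an interferon-inducible attractant of T cells, had 0, 1 and 0 counts in Ctr and 16.2, 9.44 and 7.50 CPM in SE. Ccl12 (a monocyte attractant) was at 0.591, 0 and 0 CPM in Ctr and 9.29, 12.7 and 11.6 CPM in SE, and Ccl3, a ligand of Ccr1, at 0.338, 0 and 0 CPM and 5.86, 8.01 and 6.92 CPM. Ccl5 had 0 counts in Ctr and 1.36, 0.858 and 1.12 CPM in SE, at least 1.77-fold higher. All 4 had SE levels above those of Ctr. Ccl2, the ligand of Ccr2, had 0.084, 2.56 and 0 CPM in Ctr and 4.50, 6.20 and 4.87 CPM in SE, and its call was lost without Ctr 72 h replicate 1 (2.10, adjusted p = 0.0578). Cxcl12, the homeostatic ligand of Cxcr4, fell from 70.2, 71.5 and 52.5 CPM in Ctr to 35.7, 22.8 and 34.0 CPM in SE (Log2FC -1.07 ± 0.28). Of 22 cytokine genes and receptors of the IL-1, IL-6, TNF and TGF-beta families, 19 were called higher (median 2.46, or 1.26 at the bounds), 14 of them in all 4 fits. Among the receptors, Tnfrsf1a had 10.9, 16.9 and 9.37 CPM in Ctr and 73.0, 81.3 and 98.3 CPM in SE, with a Log2FC of 2.79, beside 2.47 for Il1r1 and 2.45 for Tgfbr2. The ligands Tnf and Il1rn (the interleukin-1 receptor antagonist) had 0 counts in Ctr and 0.888, 0.763 and 1.46 CPM and 1.72, 0.954 and 0.731 CPM in SE, at least 1.65-fold and 1.80-fold higher. Socs3 (a feedback inhibitor of cytokine receptors) rose by 4.68, Lif (an interleukin-6 family ligand) by 4.10 and Stat3 (the transcription factor of that family) by 1.73. With 1 library out, Log2FC was 10.37 for Ccl12, 9.76 for Ccl3 and 8.42 for Cxcl10 without Ctr 72 h replicate 1. It was 4.56 for Ccl12, 6.06 for Ccl2, 4.62 for Ccl3 and 10.44 for Cxcl10 without Ctr 72 h replicate 2. It was 2.89 for Ccl2 and 8.30 for Cxcl10 without Ctr 72 h replicate 3.

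Interferon-stimulated genes rose almost throughout, in 26 of 27 (median 3.02), the exception being Cmpk2 at 0.26 ± 0.34. Ifit3 (an RNA-binding effector whose reads may be shared with a close copy) was at 3.38, 2.73 and 4.12 CPM in Ctr and 55.1, 57.0 and 25.4 CPM in SE, a Log2FC of 3.79 ± 0.61. Bst2 (tetherin, which holds budding virus at the membrane) was at 2.02, 0.682 and 1.12 CPM in Ctr and 34.9, 42.5 and 22.9 CPM in SE, a Log2FC of 4.60 ± 0.52. In neither gene did the groups overlap. Irf7 (the amplifier of the interferon response) rose by 4.30, Isg15 (a ubiquitin-like modifier) by 3.54, Ifit1 by 3.49, Rtp4 (a receptor transporter protein) by 2.51 and Irgm1 (an immunity GTPase) by 3.03. Of the transcription factors that carry the signal, Irf9 rose by 1.04 and Stat2 by 0.76, the call of Stat2 being lost without Ctr 72 h replicate 1 (0.67, adjusted p = 0.0536) and without SE 72 h replicate 2 (0.56, adjusted p = 0.0748). Usp18, which removes Isg15 from proteins, had a Log2FC of 2.56 ± 0.82 and its call was lost without Ctr 72 h replicate 1 (2.13, adjusted p = 0.113), without Ctr 72 h replicate 2 (2.75, adjusted p = 0.0574) and without SE 72 h replicate 1 (2.40, adjusted p = 0.0594). Without Ctr replicate 2 there were 25 higher, and with all 3 libraries that held sensory ganglion RNA left out and no unwanted factor, which leaves 1 SE library, 16. Libraries left out singly moved Log2FC to 5.36 for Bst2, 6.22 for Irf7 and 5.41 for Isg15 without Ctr 72 h replicate 1. It was 4.52 for Ifit1, 3.27 for Irf7 and 2.60 for Isg15 without Ctr 72 h replicate 2.

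These genes moved together, and the stretch before their start sites is shown for that reason. The interferon-stimulated response element type motif, read as GAAA, any 2 bases and GAAA again, was searched on both strands in the 250 bases before the start of each gene, and was found in 40.7% of the 27 interferon genes (11), 4.63% of all genes called higher, 2.78% of those called lower and 3.12% of the 18066 promoters searched. A match is a description of letters, not a site of binding. Genes with more than 1 match were taken from the list with 1 chromosome left out, so the list may hold others. Bases run 5′ to 3′ on the gene's strand, from GRCm39 with GENCODE starts. Matches may overlap, as they do before Isg15. The 7 genes taken are given as the 150 bases before the start, with each match in capitals. They are Ifit1 (chr19:34618121-34618270, plus strand), Ifit3 (chr19:34560749-34560898, plus strand), Isg15 (chr4:156285304-156285453, minus strand), Bst2 (chr8:71990115-71990264, minus strand), Usp18 (chr6:121222707-121222856, plus strand), Irgm1 (chr11:48762248-48762397, minus strand) and Rtp4 (chr16:23428496-23428645, plus strand).
Ifit1: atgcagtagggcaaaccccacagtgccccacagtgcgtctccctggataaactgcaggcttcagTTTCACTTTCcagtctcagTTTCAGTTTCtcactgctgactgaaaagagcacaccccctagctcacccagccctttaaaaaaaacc
Ifit3: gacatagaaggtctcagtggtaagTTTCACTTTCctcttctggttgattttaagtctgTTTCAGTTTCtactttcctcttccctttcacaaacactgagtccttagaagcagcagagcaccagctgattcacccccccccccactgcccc
Isg15: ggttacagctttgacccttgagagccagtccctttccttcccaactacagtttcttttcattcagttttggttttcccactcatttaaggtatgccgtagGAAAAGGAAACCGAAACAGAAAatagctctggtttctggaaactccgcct
Bst2: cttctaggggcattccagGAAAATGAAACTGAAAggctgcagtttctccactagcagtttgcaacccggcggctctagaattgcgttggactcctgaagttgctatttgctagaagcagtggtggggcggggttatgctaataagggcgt
Usp18: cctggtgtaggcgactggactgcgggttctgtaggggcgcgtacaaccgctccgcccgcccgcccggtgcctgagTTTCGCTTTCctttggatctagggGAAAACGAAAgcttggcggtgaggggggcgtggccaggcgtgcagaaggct
Irgm1: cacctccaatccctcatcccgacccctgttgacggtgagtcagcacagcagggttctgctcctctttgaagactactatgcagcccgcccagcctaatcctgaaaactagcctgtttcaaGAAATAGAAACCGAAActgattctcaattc
Rtp4: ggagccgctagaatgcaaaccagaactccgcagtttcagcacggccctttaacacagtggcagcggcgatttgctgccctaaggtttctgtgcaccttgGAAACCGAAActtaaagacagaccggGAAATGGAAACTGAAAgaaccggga

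The 250 bases before Cxcl10 (chr5:92496749-92496998, minus strand) are shown because 3 of the motifs searched stand there together: the interferon-stimulated response element type at 213 to 204 bases before the start, the NF-kB type (GGGA, any 2 bases, TTCC) at 159 to 150, and TGANTCA of the AP-1 type at 74 to 68, each in capitals. The NF-kB type was found in 21.1% of the chemokine genes (4 of 19) and 1.26% of all promoters, and TGANTCA in 21.1% of reactive astrocyte genes (4 of 19), 7.0% of genes called higher, 4.24% of genes called lower and 5.11% of all. In other lists TGANTCA was before 18.5% of interferon genes (5 of 27) and 18.2% of IL-1, IL-6 and TNF genes (4 of 22). It was before 0 of 29 cell cycle genes. GAGGAAGT of the PU.1 type was in 2.59% of genes called higher and 2.03% of all. It was before 2 of 14 general microglia genes and 0 of 21 reactive microglia genes.
Cxcl10: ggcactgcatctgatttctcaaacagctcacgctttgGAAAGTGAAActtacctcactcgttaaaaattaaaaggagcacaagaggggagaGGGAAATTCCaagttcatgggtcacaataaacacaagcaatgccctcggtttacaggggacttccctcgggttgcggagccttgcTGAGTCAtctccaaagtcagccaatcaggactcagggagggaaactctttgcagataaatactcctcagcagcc

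Antigen presentation genes rose in 14 of 18 cases (median 2.01). The class I chain B2m was at 61.5, 68.2 and 61.9 CPM in Ctr and 325, 408 and 282 CPM in SE, a Log2FC of 2.41 ± 0.17, with all SE libraries above Ctr. H2-K1 and H2-D1, the class I heavy chains, rose by 2.25 and 2.11, with reads that related H2 genes may share. The peptide transporter Tap1 (2.22) and the immunoproteasome subunit Psmb8 (2.55) rose with them. Of the class II genes, H2-Ab1 was at 0.338, 3.24 and 0.375 CPM in Ctr and 6.33, 6.68 and 1.41 CPM in SE with overlapping groups, a Log2FC of 2.78 ± 0.81, and Cd74, its invariant chain, at 1.42 ± 0.78 did not pass. The call of H2-Ab1 was lost without Ctr 72 h replicate 1 (2.38, adjusted p = 0.111), and Log2FC was 3.72 for H2-Ab1 without Ctr 72 h replicate 2.

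Lysosomal genes rose in 23 of 24 cases at a median of 1.98, and all but Npc1, a cholesterol exporter of the lysosome, were called. Npc1 was at 0.57 ± 0.12 and was called without Ctr replicate 1 (0.67, adjusted p = 0.00207 in edgeR) and without SE replicate 1 (0.71, adjusted p = 0.000254). Ctsd (cathepsin D, an aspartic protease) was at 140.0, 256 and 134 CPM in Ctr and 1064, 1264 and 1497 CPM in SE, a Log2FC of 2.94 ± 0.16. Ctsb (cathepsin B) stood at 512, 981 and 549 CPM in Ctr and 1801, 1844 and 2083 CPM in SE, a Log2FC of 1.57 ± 0.12. Both sets of SE libraries lay above Ctr. Gusb (beta-glucuronidase, 3.43), Grn (progranulin, 2.74), Ctsz (3.14), Lgmn (legumain, 2.05) and the membrane proteins Lamp2 (1.24) and Lamp1 (0.94) rose too.

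Genes of the cell cycle rose without exception, 29 of 29 at a median of 2.38. Mki67, a protein of dividing nuclei, was at 8.10, 0.171 and 4.12 CPM in Ctr and 59.9, 70.4 and 72.0 CPM in SE, a Log2FC of 4.41 ± 0.51 and an adjusted p of 2.00e-06 in edgeR. Top2a (the topoisomerase of chromosome segregation) had 3.71, 2.56 and 3.75 CPM in Ctr and 56.4, 62.4 and 71.5 CPM in SE. The groups did not overlap in either. Rrm2 (which makes deoxynucleotides, 5.23), Cdk1 (the mitotic kinase, 3.41), Mcm5 (of the replicative helicase, 2.80), Ccnd1 (cyclin D1, 1.75) and Cdkn1a (p21, a cell cycle inhibitor, 1.86) rose with them. Ccne1 (cyclin E1) was the member whose call was lost without Ctr 72 h replicate 2 (0.25, adjusted p = 0.465). Single libraries shifted Log2FC to 5.57 for Mki67 and 6.11 for Rrm2 without Ctr 72 h replicate 1, and 3.35 for Mki67 and 4.34 for Rrm2 without Ctr 72 h replicate 2.

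Of 24 genes of the extracellular matrix and its remodelling, 16 rose and 1 fell (median 1.46). Fn1 (fibronectin) was at 141, 138 and 135 CPM in Ctr and 554, 555 and 433 CPM in SE, a Log2FC of 1.89 ± 0.24. Sparc (a collagen-binding glycoprotein) rose by 1.39, Tnc (tenascin C) by 2.36, Has2 (a hyaluronan synthase) by 3.05, Mmp14 (a membrane metalloproteinase) by 1.78 and Tgfbi (a matrix protein induced by TGF-beta) by 3.86. The lecticans, core proteins of perineuronal nets, moved in different directions. Ncan (neurocan) rose by 1.23 ± 0.14 and Vcan (versican) by 1.29 ± 0.17, while Bcan (brevican; ENSMUSG00000004892.14, chr3:87894835-87910177, minus strand) fell from 379, 351 and 307 CPM in Ctr to 133, 161 and 131 CPM in SE, a Log2FC of -1.29 ± 0.18 at an adjusted p of 1.75e-05 in edgeR. Every SE library of Bcan lay below every Ctr library. With single libraries left out Log2FC came to 3.71 for Has2 and 2.97 for Tgfbi without Ctr 72 h replicate 1, and 4.79 for Tgfbi and 1.68 for Tnc without Ctr 72 h replicate 2.

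To follow the neurons, pan-neuronal, CA1 and interneuron genes were counted. Over all genes tested 4.2% were called lower and 15.1% higher, at a median Log2FC of 0.09. Of 12 pan-neuronal genes 3 fell and none rose, at a median Log2FC of -0.34, and their summed level was 10509, 12529 and 11346 CPM in Ctr and 8365, 8218 and 7530.2 CPM in SE. Snap25 (a SNARE of the presynaptic membrane; ENSMUSG00000027273.14, chr2:136533580-136624362, plus strand) stood at 2492, 2211 and 2754 CPM in Ctr and 1324, 1529 and 1646 CPM in SE, 0.603 of the Ctr level in the fit, a Log2FC of -0.73 ± 0.15. The SE libraries were all lower, but the size was close to the threshold. Thy1 (a surface glycoprotein of projection neurons) fell by 0.76 and the vesicular glutamate transporter Slc17a7 was at -0.25 ± 0.24, which did not pass. Of 8 CA1 pyramidal markers, Crym (a thyroid hormone binding protein, 248, 244 and 272 CPM in Ctr and 86.7, 123 and 124 CPM in SE), Mpped1 (a phosphoesterase-domain protein, Log2FC -1.01 ± 0.24) and Fibcd1 (a fibrinogen-domain receptor, -1.45 ± 0.52) fell, and the rest did not pass, with a median of -0.74. SE replicate 1, the library with the high dentate level, had the lowest CA1 sum. Without that library 1 pan-neuronal, 2 CA1 and 2 interneuron genes were called lower. Of 12 interneuron genes, Slc32a1 (the vesicular GABA transporter, -0.82), Lhx6 (a factor of parvalbumin and somatostatin cells, -0.93), Cck (cholecystokinin, -1.23) and Vip (-0.72) fell, and Npy (neuropeptide Y) rose from 47.0, 29.2 and 43.1 CPM in Ctr to 113, 124 and 147 CPM in SE. Pvalb (-0.52 ± 0.38) and Sst (-0.65 ± 0.33) did not pass, though Sst was called without Ctr replicate 2 (-0.83, adjusted p = 0.0344 in edgeR). Calls were lost for Fibcd1 and Vip without Ctr 72 h replicate 1 (Log2FC -0.63 to -1.09), for Fibcd1 without Ctr 72 h replicate 2 (Log2FC -1.22), for Lhx6, Snap25 and Vip without Ctr 72 h replicate 3 (Log2FC -0.50 to -0.65), for Fibcd1, Slc32a1, Snap25 and Vip without SE 72 h replicate 1 (Log2FC -0.41 to -1.44), for Fibcd1 and Vip without SE 72 h replicate 2 (Log2FC -0.81 to -1.37), and for Fibcd1 without SE 72 h replicate 3 (Log2FC -1.54).

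To follow synaptic transmission, genes of vesicle release, of receptors and of channels were counted. Of 20 vesicle release genes 8 fell and none rose (median -0.56), all within a narrow range. Stx1a (syntaxin 1A) had the largest fall, from 122, 104 and 163 CPM in Ctr to 44.6, 71.1 and 85.7 CPM in SE (Log2FC -0.95 ± 0.30). Syn2 (a synapsin, -0.75), Vamp2 (the vesicle SNARE, -0.71), Syt1 (the calcium sensor, -0.70), Rims1 (-0.70) and Pclo (-0.69), scaffolds of the active zone, and Cplx1 (complexin 1, -0.67) fell too. Without SE replicate 1 only 2 of the 20 were called lower. Of 22 glutamate receptor genes 4 fell, the AMPA subunits Gria3 (-0.71) and Gria4 (-0.79) and the NMDA subunits Grin2d (-0.98) and Grin3a, which was at 81.1, 80.3 and 76.9 CPM in Ctr and 28.6, 33.2 and 37.9 CPM in SE. The main AMPA and NMDA subunits Gria1 (-0.33 ± 0.24), Gria2 (-0.31 ± 0.17) and Grin1 (-0.33 ± 0.13) did not pass. Of 16 genes of GABA receptors and chloride transport 4 fell, among them the GABA-A subunits Gabra3 (-0.92), Gabra5 (-0.80) and Gabrd (13.9, 8.02 and 17.2 CPM in Ctr, 5.33, 4.77 and 6.97 CPM in SE). Without SE replicate 1 there was 1. The chloride exporter Slc12a5 (KCC2) was at -0.54 ± 0.16 and did not pass, but it was called without SE replicate 3 (-0.73, adjusted p = 0.00297 in edgeR). Of 34 potassium and HCN channel genes 5 fell, led by Kcnn1 (a calcium-activated SK channel, -1.07) and Kcnc2 (the fast delayed rectifier Kv3.2, 111, 90.5 and 120.4 CPM in Ctr and 30.5, 60.9 and 63.6 CPM in SE), while Kcnip2 (a Kv4 partner, -1.11 ± 0.43) missed the thresholds. Of 26 sodium and calcium channel genes the auxiliary subunits Scn2b (-0.68) and Scn3b (-0.86) fell, 7.7% of the list beside 4.2% of all genes tested, and 7 genes did so without Ctr replicate 2. Over these lists no gene but Grm3 was called higher. Near the threshold, single libraries decided many of these calls, which were lost for Gabra3, Scn2b, Syn2 and Syt1 without Ctr 72 h replicate 1 (Log2FC -0.59 to -0.79), for Cplx1 and Gabra5 without Ctr 72 h replicate 2 (Log2FC -0.63 to -0.79), for Cplx1, Gabrd, Gria3, Pclo, Rims1, Scn2b, Stx1a and Vamp2 without Ctr 72 h replicate 3 (Log2FC -0.57 to -0.93), for Gabra3, Gabra5, Gria3, Pclo, Rims1, Scn2b, Stx1a, Syt1 and Vamp2 without SE 72 h replicate 1 (Log2FC -0.56 to -0.71), for Cplx1, Gabra5, Syn2 and Vamp2 without SE 72 h replicate 2 (Log2FC -0.63 to -0.78), and for Cplx1 without SE 72 h replicate 3 (Log2FC -0.64).

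Of 18 immediate early genes none was called higher in SE at 72 h and 2 were called lower (median -0.70). Over all genes tested 15.1% were called higher and 4.2% lower. Arc (a postsynaptic protein of plasticity) was at 358, 180.1 and 195 CPM in Ctr and 40.8, 69.9 and 144 CPM in SE, a Log2FC of -1.54 ± 0.52, and Nr4a1 (an orphan nuclear receptor) at 168, 118 and 146 CPM and 31.8, 41.4 and 96.7 CPM, -1.35 ± 0.49. SE libraries were lower than Ctr in both, but the calls rested on single libraries and were lost for Arc and Nr4a1 without Ctr 72 h replicate 1 (Log2FC -1.17 to -1.23), for Nr4a1 without Ctr 72 h replicate 3 (Log2FC -1.34), for Arc and Nr4a1 without SE 72 h replicate 1 (Log2FC -1.05 to -1.18), and for Arc and Nr4a1 without SE 72 h replicate 2 (Log2FC -1.18 to -1.42). Without Ctr replicate 2 there were 8 called lower, and without SE replicate 1 there were 0. Fos (-0.47 ± 0.60), Egr1 (-0.82 ± 0.59) and Npas4 (-2.01 ± 0.83) did not pass, though without Ctr replicate 2 Egr1 (-1.22, adjusted p = 0.0274 in edgeR) and Npas4 (-2.32, adjusted p = 0.004) were called lower. Of 9 feedback inhibitors of MAPK signalling, Spry1 alone rose (1.70), 11.1% of the list beside 15.1% of all genes tested. Of 16 transcription factors that the study named from these samples, so that their direction is not independent evidence, 7 rose. These were 43.8% of the list beside 15.1% of all genes tested. The study named many of them by enrichment of their targets among DEGs, which does not measure the RNA of the factor itself. Runx2, whose enrichment the study saw only at 72 h, was not called (0.955 of the Ctr level in the fit). Suz12, Creb1 and Ppargc1a were not called either. The myeloid factors Spi1 (PU.1, 2.36, 0.853 and 2.62 CPM in Ctr and 16.2, 29.2 and 27.1 CPM in SE), Irf8 (3.92) and Runx1 (2.71) had the largest values, followed by Nfe2l2 (the antioxidant factor NRF2, 1.74), Rest (a repressor of neuronal genes, 1.29), Nfkb1 (1.23) and Rel (1.18). Of 20 neuropeptide and trophic factor genes 6 rose and 1 fell, but 2 of the increases, Npy and Fgf2 (a fibroblast growth factor, 9.03, 17.1 and 6.75 CPM in Ctr and 60.1, 36.8 and 37.0 CPM in SE), held in all 4 fits. Penk (proenkephalin) was at 22.7, 9.55 and 13.5 CPM in Ctr and 123, 53.9 and 59.7 CPM in SE, and Gal (galanin) at 0, 12.3 and 2.25 CPM and 48.8, 10.8 and 9.79 CPM with overlapping groups. Their calls were lost for Gal at 2.07 (adjusted p = 0.0631) without Ctr 72 h replicate 1, Penk at 2.05 (adjusted p = 0.0672) without Ctr 72 h replicate 2, and Penk at 1.90 (adjusted p = 0.0538) without SE 72 h replicate 1. The other values that moved were 4.59 for Irf8, 1.72 for Runx1 and 2.49 for Spry1 without Ctr 72 h replicate 1. It was 5.46 for Gal, 3.27 for Irf8 and 3.68 for Runx1 without Ctr 72 h replicate 2. It was 2.62 for Gal without SE 72 h replicate 1. It was -2.13 for Arc and -1.97 for Nr4a1 without SE 72 h replicate 3.

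**Figure D4:**
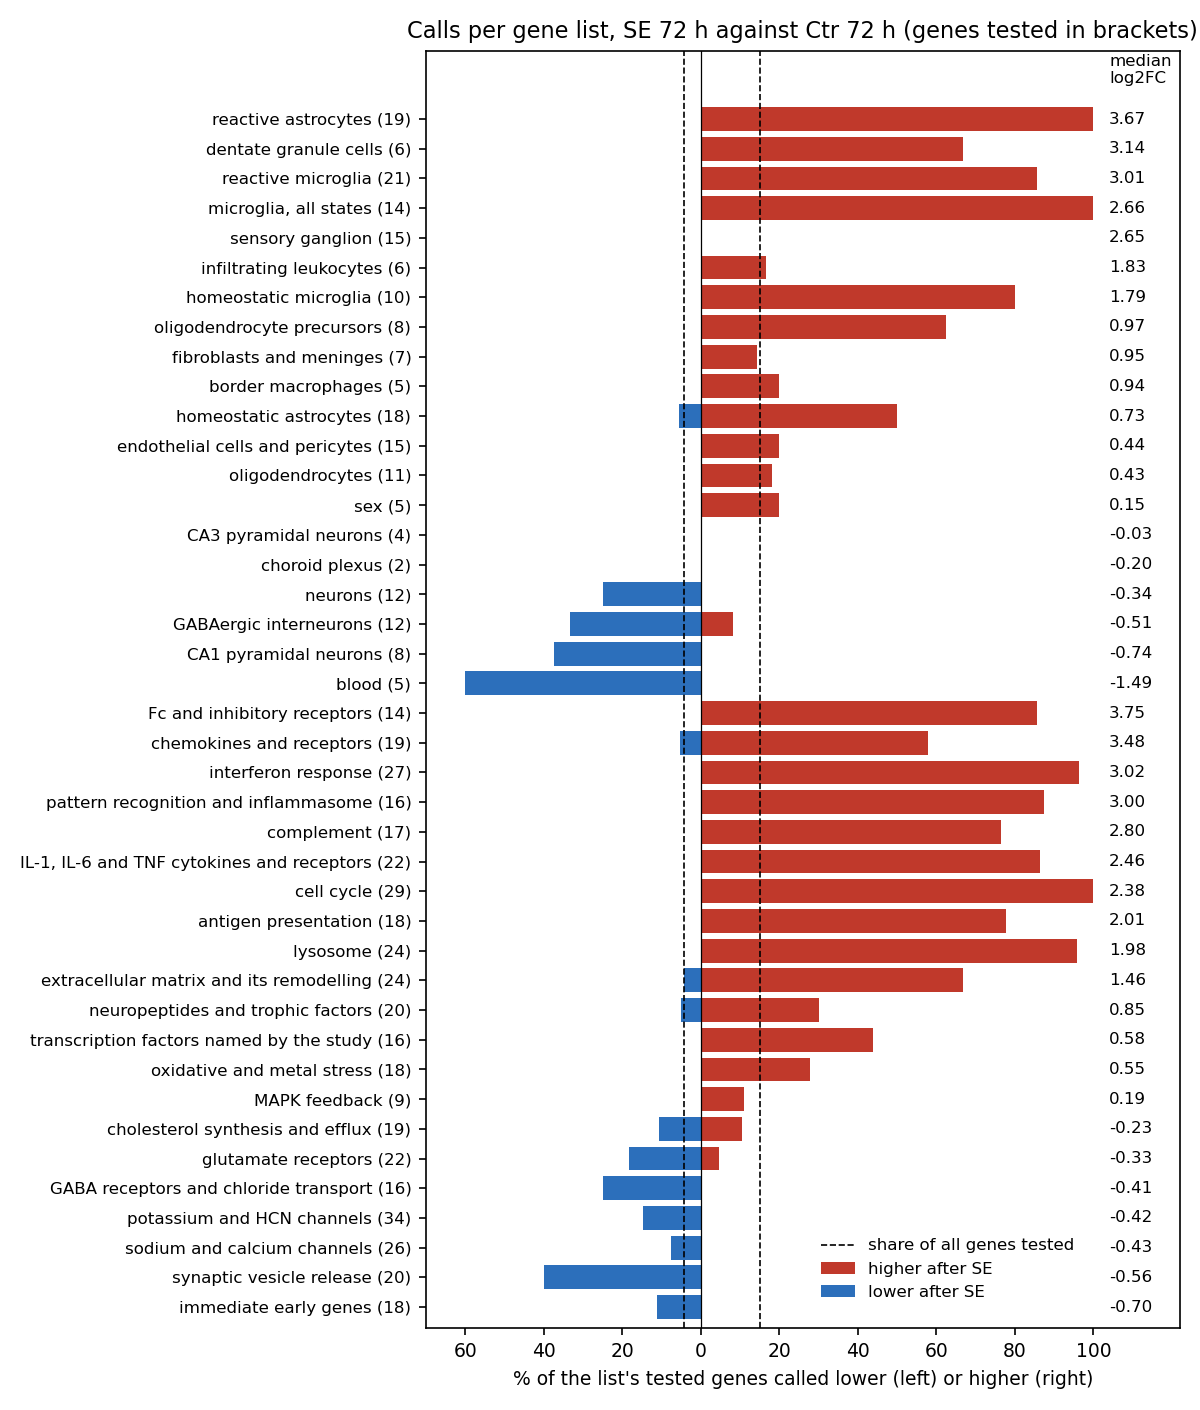
Share of the tested genes of each of 41 lists called higher (to the right) and lower (to the left) in SE 72 h against Ctr 72 h, in percent, with the list's median Log2FC at the right edge. Dashed lines mark the shares over all genes tested, 15.1% higher and 4.2% lower, and the microglia, reactive astrocyte and cell cycle bars reach the full length to the right.

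To place 72 h in the time course, the SE effect was set beside those at 36 h and 12 h, each against its own Ctr libraries, so that no control is shared. Of the genes called higher at 72 h, 1498 were also called higher at 36 h (54.5% of those at 72 h and 64.9% of the 2308 at 36 h), and 959 at 12 h (34.9% and 38.1% of 2514). Of those called lower, 394 were so at 36 h (51.7%, and 24.4% of the 1618 at 36 h) and 295 at 12 h (38.7%, and 14.3% of 2060). At neither of the earlier times were 1016 of the higher and 287 of the lower genes called. The difference of the effects was then tested for every gene by an interaction contrast. It passed for 858 genes against 36 h (654 more positive at 72 h, 3.6% of the genes tested, and 204 more negative, 1.12%) and for 3364 against 12 h (2221 or 12.2%, and 1143 or 6.3%). These counts depended on Ctr replicate 2 and the unwanted factor, with 214 more positive and 82 more negative against 36 h in all 4 fits.

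In the contrast with 36 h, the lists of microglia, homeostatic astrocyte and lysosomal genes held members with a more positive effect at 72 h. Of 10 homeostatic microglia genes 9 had a more positive effect at 72 h, their median Log2FC going from -1.82 at 12 h over 0.21 at 36 h to 1.79 at 72 h. P2ry12 had means of 3.38 ± 0.445 CPM at SE 12 h, 11.6 ± 2.29 CPM at SE 36 h and 62.8 ± 20.9 CPM at SE 72 h (SD, n = 3), against 44.1 ± 2.40, 50.3 ± 8.06 and 38.3 ± 9.84 CPM in Ctr. SE was far below Ctr at both earlier times, and the effect differed from that at 36 h by 2.81 ± 0.32 (adjusted p = 0.000151, edgeR). Of 24 lysosomal genes 12 had a more positive effect, and of 14 general microglia genes 8. Cd68 differed by 2.30 ± 0.45 (adjusted p = 0.00727) and C1qa by 1.15 ± 0.24 (adjusted p = 0.0108), the former not without Ctr 72 h replicate 2 (1.13, adjusted p = 0.0935). The homeostatic astrocyte list went from a median of -0.19 at 36 h to 0.73, with 10 genes more positive. Leaving out single 72 h libraries moved these counts. Homeostatic microglia had from 6 genes (without Ctr replicate 2) to 9, general microglia from 7 to 9, lysosomal genes from 7 (without SE replicate 3) to 13 (without SE replicate 1) and homeostatic astrocytes from 7 (without SE replicate 3) to 11 (without Ctr replicate 1). Differences were lost for Cx3cr1 at 0.93 (adjusted p = 0.0922) and Gpr34 at 1.27 (adjusted p = 0.114) without Ctr 72 h replicate 2, Olfml3 at 0.89 (adjusted p = 0.113) without Ctr 72 h replicate 3, Olfml3 at 1.05 (adjusted p = 0.103) without SE 72 h replicate 2, and Gpr34 at 1.33 (adjusted p = 0.0555) and Olfml3 at 1.05 (adjusted p = 0.0819) without SE 72 h replicate 3. Among astrocyte genes they were lost for Kcnj10 at 1.11 (adjusted p = 0.0631) and Slc6a11 at 1.40 (adjusted p = 0.0671) without Ctr 72 h replicate 2, Slc4a4 at 0.94 (adjusted p = 0.0681) without Ctr 72 h replicate 3, Slc4a4 at 1.03 (adjusted p = 0.0549) without SE 72 h replicate 1, Kcnj10 at 1.07 (adjusted p = 0.0617) and Slc4a4 at 1.06 (adjusted p = 0.0567) without SE 72 h replicate 2, and Kcnj10 at 1.06 (adjusted p = 0.0565), Slc4a4 at 1.00 (adjusted p = 0.0616) and Slc6a11 at 1.40 (adjusted p = 0.0585) without SE 72 h replicate 3. Reactive astrocyte genes had a higher median at 36 h (4.74) than at 72 h (3.67), and 4 of them, Cd44, Hspb1 (a small heat shock protein), Emp1 (an epithelial membrane protein) and S100a10, had a less positive effect at 72 h. With single libraries left out there were from 1 (without Ctr replicate 2) to 5. Ctr replicate 2 decided part of these calls, which were lost for Cd44 at -1.81 (adjusted p = 0.0538), Emp1 at -2.14 (adjusted p = 0.0682) and Hspb1 at -1.02 (adjusted p = 0.419) without Ctr 72 h replicate 2, Emp1 at -2.83 (adjusted p = 0.0595) without SE 72 h replicate 1, and Emp1 at -2.72 (adjusted p = 0.0763) and Hspb1 at -2.13 (adjusted p = 0.0525) without SE 72 h replicate 2. For Gfap the difference of 0.69 ± 0.32 did not pass (adjusted p = 0.204). Bcan was lower at SE 36 h (40.9 ± 7.76 CPM) than at SE 72 h (142 ± 16.9 CPM), and its effect differed by 1.86 ± 0.25 (adjusted p = 0.000514).

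Against 12 h, the genes that differed were mostly more positive at 72 h in the cell cycle and interferon lists and more negative among immediate early genes. Of 29 cell cycle genes 21 had a more positive effect at 72 h, their median being 0.44 at 12 h against 2.00 at 36 h and 2.38 at 72 h. Mki67 averaged 2.82 CPM at SE 12 h, 20.9 CPM at SE 36 h and 67.5 CPM at SE 72 h. Of 27 interferon genes 10 were more positive than at 12 h, and the medians were 1.02, 3.23 and 3.02. Immediate early genes had a median of 2.05 at 12 h and -0.70 at 72 h, and 13 of 18 had a more negative effect at 72 h. Arc averaged 969 CPM at SE 12 h, 323 CPM at SE 36 h and 85.1 CPM at SE 72 h, with Ctr means of 101, 253 and 244 CPM. Neuropeptides and trophic factors followed the same order, with 9 of 20 more negative than at 12 h. With single 72 h libraries left out the counts ran from 18 (without Ctr replicate 2) to 23 for cell cycle, 7 (without SE replicate 2) to 15 (without SE replicate 3) for interferon, 10 to 15 (without SE replicate 3) for immediate early and 8 to 10 for neuropeptide and trophic factor genes. Genes of receptors and channels were called lower in larger numbers at 36 h than at 72 h: 13 against 4 glutamate receptor genes, 11 against 4 GABA genes and 12 against 5 potassium and HCN channel genes. Over all 18153 genes tested, 1618 were called lower at 36 h and 762 at 72 h, so larger numbers at 36 h were not particular to these lists. The difference of the effects from 36 h passed, toward a more positive effect at 72 h, for 1 gene in each of the 3 lists, and for none of the glutamate and GABA genes without Ctr replicate 2.

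**Figure D5:**
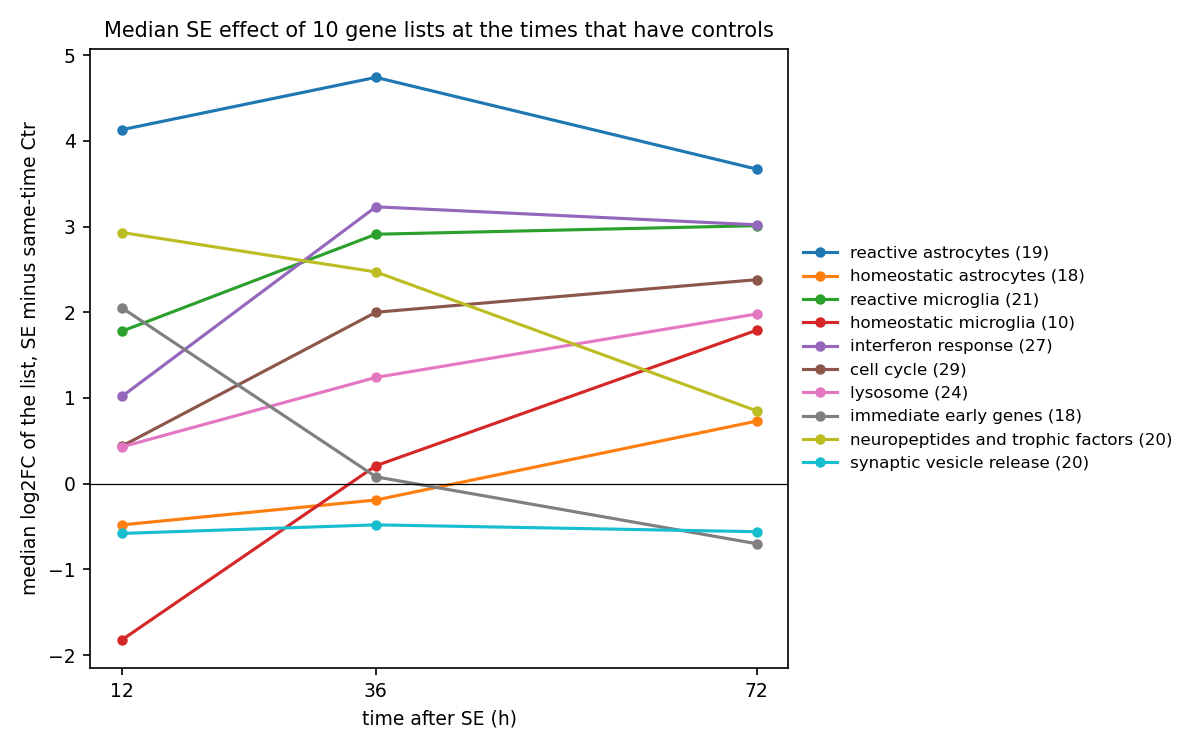
Median Log2FC of SE over Ctr (vertical axis) of 10 gene lists at 12, 36 and 72 h (horizontal axis), each time against its own 3 Ctr libraries. Homeostatic microglia go from -1.82 to 1.79, while immediate early genes go from 2.05 to -0.70.

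The genes with the largest differences between 72 h and 36 h were named by rule. More positive at 72 h were Cdca3 (difference 3.40 ± 0.98), Cd33 (an inhibitory sialic acid lectin of myeloid cells, 3.35 ± 0.41, with 14.3, 2.22 and 4.87 CPM in Ctr 72 h and 35.5, 55.7 and 56.6 CPM in SE 72 h), Dennd1c (a guanine exchange factor of membrane traffic, 3.12 ± 0.58) and the lncRNAs Gm2629 (3.56 ± 0.51) and Gm27202 (3.09 ± 0.71). More negative were Gm22513 (-5.18 ± 1.48), Plaur (the urokinase receptor, -3.64 ± 0.83), Bc1 (-3.42 ± 1.00), Cd44 (-3.16 ± 0.55) and Akr1b8 (an aldo-keto reductase, -2.93 ± 0.57). Cd44 averaged 321 ± 30.6 CPM at SE 36 h and 157 ± 20.9 CPM at SE 72 h, so that the level was lower at 72 h while still above Ctr. In Bc1 the 72 h Ctr libraries had the high levels given above, and SE stood at 1317 ± 1283 CPM at SE 36 h and 669 ± 182 CPM at SE 72 h. Calls of the difference were lost for Akr1b8 at -2.21 (adjusted p = 0.0553), Bc1 at -3.67 (adjusted p = 0.0555), Cdca3 at 2.55 (adjusted p = 0.145), Dennd1c at 1.65 (adjusted p = 0.0511) and Gm22513 at -5.42 (adjusted p = 0.0682) without Ctr 72 h replicate 2, Bc1 at -2.93 (adjusted p = 0.101), Cdca3 at 3.41 (adjusted p = 0.0538) and Gm22513 at -4.14 (adjusted p = 0.0932) without Ctr 72 h replicate 3, Bc1 at -3.26 (adjusted p = 0.0942), Cdca3 at 3.47 (adjusted p = 0.063) and Gm22513 at -5.78 (adjusted p = 0.0522) without SE 72 h replicate 1, Bc1 at -3.37 (adjusted p = 0.101), Cdca3 at 3.35 (adjusted p = 0.0851) and Gm22513 at -5.21 (adjusted p = 0.0865) without SE 72 h replicate 2, and Bc1 at -3.64 (adjusted p = 0.0683), Cdca3 at 3.45 (adjusted p = 0.0682) and Gm22513 at -4.75 (adjusted p = 0.0883) without SE 72 h replicate 3. The difference moved to -3.56 for Akr1b8, 4.38 for Cd33, -4.22 for Cd44, 3.00 for Cd68, 9.46 for Cdca3 and 4.51 for Gm2629 without Ctr 72 h replicate 1. It was 2.73 for Cd33, 2.03 for Gm2629 and -3.03 for Plaur without Ctr 72 h replicate 2. It was 4.03 for Dennd1c without Ctr 72 h replicate 3.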

How the data were processed

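Total RNA of CA1 was extracted with miRNeasy columns, made into poly(A)-selected TruSeq v2 libraries and sequenced on a HiSeq 1500 as paired ends. According to the submitters' processing notes and the methods of the study, the authors trimmed reads with Trim Galore 0.6.6, aligned them to GRCm39 with STAR 2.7.8a, used SAMtools 1.10 and counted read pairs per gene of GENCODE M26 with HTSeq 0.13.5. The deposited values are raw counts, not normalized and counted without strand, so a gene and an antisense or overlapping partner cannot be told apart. Genes of low count appear to be left out of the table. Of its 18647 genes, 18552 matched GENCODE M39, from which loci were read, and 95 did not.

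CPM used library totals scaled by TMM factors (edgeR 4.0.16, R 4.3.3). The SE 72 h against Ctr 72 h contrast came from a quasi-likelihood fit over all 24 libraries with a term per group, no replicate block, and 1 factor of unwanted variation, the first singular vector of the deviance residuals (RUVr, computed by hand). The filterByExpr filter left 18153 genes, over which p-values were adjusted by Benjamini-Hochberg. Columns were assigned by their label numbers, and groups were taken from treatment and time. Alternatives included DESeq2 1.42.0, limma-voom (limma 3.58.1), other scalings and filters, thinned counts and leaving out each library. On counts simulated for this contrast over 17671 genes, with 200 changed by 1.5 on the log2 scale, the fit called 154 (77%) and 7 others. The changed genes were drawn from those with a mean above 1 CPM. The simulated libraries held no ganglion RNA or other unwanted variation, so these rates need not hold for the data. Replicates differed beyond counting noise, with a chi-square per degree of freedom of 10.1 to 48.3. At a floor of 3 counts the level was 0.253, 0.511 and 1.12 CPM in Ctr replicates 1 to 3 and 0.177, 0.286 and 0.146 CPM in SE, and such floors cover counting error only.

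Genes were named as the 12 largest increases and 12 largest decreases (mean of at least 1 log2 CPM, groups not overlapping, called also without Ctr replicate 2, increases with a Ctr library above 3 counts), the 5 highest ratios to the floor, the 5 most positive and 5 most negative differences from 36 h, and members of gene lists where the text is about the list. Of 653 list entries 638 were in the table. Examples within a list were picked after their values were seen. The comparison, lists and tests were chosen with earlier results of these data known. The set called in 4 fits was added after seeing the data. Some list members are not reported by name here.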

Additional observations from a re-analysis of the deposited data

Results flagged for a closer look

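The size of the SE effect was compared between time points by an interaction contrast in edgeR, and it differed for 858 genes between 72 h and 36 h and for 3364 genes between 72 h and 12 h. Among named genes the effect at 72 h exceeded that at 36 h by 3.56 on the log2 scale for the lncRNA Gm2629 (adjusted p = 0.000818), 3.40 for the cell division gene Cdca3 (adjusted p = 0.0476), 3.35 for the myeloid lectin Cd33 (adjusted p = 0.000309), 3.12 for the exchange factor Dennd1c (adjusted p = 0.0052) and 3.09 for the lncRNA Gm27202 (adjusted p = 0.0168). The difference was -5.18 for the snRNA Gm22513 (adjusted p = 0.0466), -3.64 for the urokinase receptor Plaur (adjusted p = 0.0168), -3.42 for the dendritic RNA Bc1 (adjusted p = 0.05), -3.16 for the hyaluronan receptor Cd44 (adjusted p = 0.00378) and -2.93 for the reductase Akr1b8 (adjusted p = 0.00655). No group had more than 3 libraries, so single outlying libraries were not tested for. Without Ctr 72 h replicate 2 the count against 36 h was 492, and without Ctr 72 h replicate 1 it was 1684.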

How the results depend on the processing

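The 3509 DEGs (2747 higher, 762 lower) came to 1520 (1211 and 309) with the 72 h libraries alone, to 1870 (1613 and 257) without the 3 libraries that held sensory ganglion RNA and without the unwanted factor, where the lone SE library was assumed to vary like the other groups, and to 2231 (1725 and 506) when a call in 4 fits was asked for, both of the last added after seeing the data. A Log2FC threshold of 1 left 335 lower genes, and no threshold gave 1699. Leaving out 1 library gave 3088 to 3755 DEGs, 2198 to 2971 higher and 573 to 913 lower. DESeq2, limma-voom, both other scalings, both other filters, thinned counts, the range of label numbers, all controls pooled, no unwanted factor and the ganglion score kept each of these 3 counts within 1.5 times. The 858 differences from 36 h came to 447 with limma-voom, 386 with no unwanted factor, 489 with the ganglion score, 414 with thinned counts, 262 and 302 without Ctr 72 h replicate 2 under these same 2 alternatives to the factor, 75 without the 3 ganglion libraries, and 492 to 1684 with 1 library left out. The 3364 differences from 12 h came to 1196 without those 3 libraries and 2239 with thinned counts.

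No pairing of the libraries by replicate number was seen, though 3 libraries a group cannot exclude it. Same-number correlations of SE with Ctr deviations were -0.201, 0.063 and 0.162, and those of different numbers ran from -0.299 to 0.252. A replicate block gave 3525 DEGs (2754 higher, 771 lower). No label number range held both SE and Ctr libraries of 72 h, so its effect within a range could not be had.

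Of 237 genes named (Hes5 not counted), 214 were called, of which 121 kept their call in all 25 settings. The other 93 lost it in at least 1, while 14 genes not called passed in at least 1. Fitted signs turned for Apoe (-0.10), Gabra5 (0.04), Gria1 (0.32) and Pvalb (0.05) with the label number range, for Fos (0.29) with all controls pooled, for Cmpk2 (-0.08) and Scn10a (-1.28) without the 3 ganglion libraries, for Scn10a (-0.51) and Xist (-0.64) with the 72 h libraries alone, for Scn10a (-0.54) and Xist (-0.66) with no unwanted factor, and for Scn10a (-0.25) without Ctr 72 h replicate 2 with the ganglion score. The causes were not tested. The shallowest library, Ctr 72 h replicate 3, limits what can be seen of genes at the floor in Ctr.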

Other observations

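Genes of the oligodendrocyte lineage and of vessels were read beside the 15.1% of all genes tested that were called higher. Of 8 oligodendrocyte precursor genes 5 rose and none fell (median Log2FC 0.97), 4 of them in all 4 fits. Olig2 (a transcription factor of the lineage) was at 27.5, 14.8 and 20.6 CPM in Ctr and 44.4, 71.8 and 93.2 CPM in SE, a Log2FC of 1.72 ± 0.27. Olig1 rose by 1.68 and the proteoglycan Cspg4 (NG2) by 1.18. Of 11 genes of mature oligodendrocytes 18.2% were called higher, near the share over all genes: Cldn11 (a claudin of the myelin sheath, 1.75 ± 0.40) and Mag (a myelin adhesion protein, 1.00 ± 0.35) rose, the latter not without Ctr 72 h replicate 2 (0.58, adjusted p = 0.202), without SE 72 h replicate 2 (0.72, adjusted p = 0.183) and without SE 72 h replicate 3 (0.83, adjusted p = 0.14). Of 15 endothelial and pericyte genes 3 rose (20%, median 0.44): Cldn5 (a claudin of the blood-brain barrier) from 34.8, 17.9 and 28.9 CPM in Ctr to 64.8, 74.5 and 58.7 CPM in SE, Pdgfrb (a growth factor receptor of pericytes, 1.03) and Cdh5 (endothelial cadherin, 0.77, not called without SE 72 h replicate 1 (0.61, adjusted p = 0.0558)). Of 7 fibroblast and meningeal genes 1 was called higher and none in all 4 fits. No gene was called among 2 of the choroid plexus and 4 of CA3 neurons.

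Of 18 genes of oxidative and metal stress 5 rose and none fell (median 0.55). Hmox1 (heme oxygenase 1) was at 6.33, 7.16 and 5.25 CPM in Ctr and 30.9, 25.8 and 27.0 CPM in SE, a Log2FC of 2.13 ± 0.35. Mt1 (a metallothionein) rose by 1.92, and Ftl1 and Fth1, the ferritin chains, by 1.27 and 0.91, with reads that ferritin pseudogenes may share. Of 19 genes of cholesterol synthesis and efflux 2 were called higher and 2 lower (median -0.23). These were 10.5% each, beside 15.1% and 4.2% of all genes tested. Ch25h (cholesterol 25-hydroxylase) rose by 3.84 (5.56 for Ch25h without Ctr 72 h replicate 1, and 3.07 for Ch25h without Ctr 72 h replicate 2) and the lipid exporter Abca1 from 39.2, 69.4 and 45.0 CPM in Ctr to 119, 135 and 188 CPM in SE. Idi1 (an isoprenoid isomerase, -1.04 ± 0.37) fell, but the call was lost without Ctr 72 h replicate 2 (-0.61, adjusted p = 0.234), without SE 72 h replicate 1 (-0.98, adjusted p = 0.101) and without SE 72 h replicate 2 (-0.77, adjusted p = 0.154). At 12 h the same list had 9 genes called higher. Over all lists 596 genes were tested, of which 263 were called higher (44.1%) and 41 lower (6.9%).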
